A study of Mus musculus with 22 samples.

Results

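The genes described here are the subunits of the ionotropic glutamate receptors and the proteins that hold them at the postsynaptic side of excitatory synapses. They were chosen by gene symbol from a written list: 4 AMPA, 6 NMDA and 4 kainate receptor subunits, the delta receptor subunit Grid1, 4 transmembrane AMPA receptor regulatory proteins (TARPs), 4 Dlg, 4 Dlgap and 3 Shank scaffolds, 2 subunits of the kinase CaMKII and 2 neuroligins. All 34 were found among the 55341 genes of the count tables. The series measured mRNA in the striatum of mice by translating ribosome affinity purification, in which ribosomes tagged in 1 cell type are pulled down and the RNA on them is sequenced. Every animal, the controls included, carried the ribosomal protein Rpl10a fused to EGFP in medium spiny neurons that express the dopamine receptor Drd1 (D1 neurons). The labels describe 6 wild-type animals (numbers 1, 4, 12, 13, 14 and 20) and 5 animals of genotype KO, a model of fragile X syndrome (numbers 2, 3, 9, 10 and 11), called mutant here. Tissue was lysed in cycloheximide, which holds ribosomes on mRNA, and each animal gave 1 pulldown library (IP) and 1 library of the cleared lysate before pulldown (input, called Total in the labels), 22 libraries in all. The promoter of the transgene, the mutant allele, age, sex, strain and litter are not given in the sources used here.

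Glutamate released by cortical and thalamic axons acts on AMPA receptors, which carry the fast current, and on NMDA receptors, which admit calcium and set off plasticity. TARPs and Dlg proteins bind the receptors or their partners, Dlgap proteins link Dlg to Shank, and Shank reaches the actin cytoskeleton, so that the chain forms the postsynaptic density. The product of Fmr1, FMRP, binds RNA and sits on polysomes, where it can hold back translation, and mRNAs of this synapse, Dlg4 and Camk2a among them, are known from other work as FMRP-bound.

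Fmr1, the gene of fragile X syndrome, was read first, as a check of the labels. Its level was 86.3 ± 12.4 CPM (SD, n = 6) in IP of wild-type animals and 9.99 ± 1.29 CPM (SD, n = 5) in IP of mutants, and at 63.7 ± 4.72 and 13.2 ± 1.60 CPM in input, with no overlap between genotypes. CPM are read counts scaled to an effective library size, which is adjusted so that all 22 libraries can be compared. They are not plain counts over the total of a library. For example, 2668 reads of Gria1 among 28.4 M total counts in the input of mutant animal 10 are given as 157 CPM. The totals were 9.38 to 82.4 M counts in IP and 25.2 to 43.3 M in input. All 8 D1 markers tested were higher in IP than in input in both genotypes, and all 6 markers of the neurons that express Drd2, 8 of astrocytes, 7 of oligodendrocytes, 6 of their precursors and 7 of microglia were lower, as were 7 of 8 interneuron markers. Of the 10 markers of cortical excitatory neurons, 1 was higher in IP, 1 was lower and 8 did not pass, in each genotype. In 4 animals, wild-type 1 and 12 and mutant 3 and 9, markers of cortical excitatory neurons stood apart: Slc17a7, their vesicular glutamate transporter, lay between 25.2 and 113.2 CPM in their inputs and between 0.640 and 3.30 CPM in those of the other 7. The same held for Tbr1, Neurod2 and Neurod6 and in IP, where Slc17a7 lay between 17.2 and 68.0 CPM against 0.0466 to 1.31 CPM. Summed over all 10 cortical markers listed, the 4 were not apart from the rest in IP, where animal 20 (459.9 CPM) lay above animals 1 (382 CPM) and 3 (446 CPM). In input the 4 lay above the other 7, though animal 20 (316.0 CPM) lay beside animal 1 (316.4 CPM). The 4 animals stay in all values below unless a value is said to be without them.

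Most of these genes were higher in the D1 pulldown than in the input. In wild type 24 of 34 passed the test as higher in IP and 4 as lower, beside 49.6% of all 17311 genes tested that passed in either direction (21.8% as higher, 27.8% as lower). In the mutant 22 were higher and 3 lower, beside 47.3% of all genes (20.9% and 26.4%). The median log2 fold change of the 34 was 0.48 for wild-type animals and 0.46 for mutants, while that of all genes tested was -0.11 in both. At an unadjusted p below 0.05 were 28 members in wild type and 26 in the mutant (54.9% and 53.1% of all genes), and 7 and 8 members had a negative estimate (55.4% and 55.2% of all genes). By role, 9 of 15 receptor subunits were higher and 4 lower in wild type, while 15 of the 19 scaffolds, TARPs, CaMKII subunits and neuroligins were higher and 0 lower. All 4 that were lower in wild type were receptor subunits of low level in these libraries: Grin2c, Grin2d, Grin3a and Grik1.

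No member passed the test between genotypes. In IP 33 of 34 had enough counts to be tested, none passed after adjustment in edgeR (background 0.0553% of 14456 genes), and the smallest adjusted p was 0.382. The estimates leaned to the mutant side being lower: 28 of the 33 log2 fold changes were negative, against 49.3% of all genes tested, with a median of -0.14 against 0.0041. In input 0 of 34 passed (background 0.0183% of 16429 genes), 23 were negative against 49.5% of all genes, and the median was -0.097 against 0.0025. At an unadjusted p below 0.05, edgeR had 6 members in IP (18.2%, background 7.62%) and 4 in input (11.8%, background 6.84%), all lower in the mutant. Of all genes at such a p, 652 of 1102 in IP and 604 of 1123 in input were lower in the mutant. DESeq2 and limma-voom also passed 0 members in either assay after adjustment. Over all genes DESeq2 passed 75 of 14444 in IP and 28 of 16403 in input, and limma-voom 5 of 14456 and 3 of 16429. Genes of 1 synapse in the same animals are not independent of each other, so these counts are a description of the list and not a test of it. No cell type marker listed passed between genotypes, and their median estimates are given beside those of the members. The D1 markers had a median log2 fold change of -0.044 in IP and -0.22 in input (8 of 8 negative). Markers of neurons that express Drd2 had 0.10 and -0.049 (6 of 6 negative in input), where 49.5% of all genes were negative. The medians were 0.61 and 0.12 for interneuron markers, 0.31 and 0.20 for astrocytes and 0.19 and 0.12 for oligodendrocytes. They were 0.14 and 0.010 for oligodendrocyte precursors, 0.14 and -0.060 for microglia and 0.41 and 0.53 for cortical markers. The part of these cells in the lean of the members was not tested. The groups of the 2 genotypes overlapped for each member tested, in IP and in input, where 0.595% of genes in IP and 0.371% in input had every mutant below every wild-type library.

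**Figure D1:**
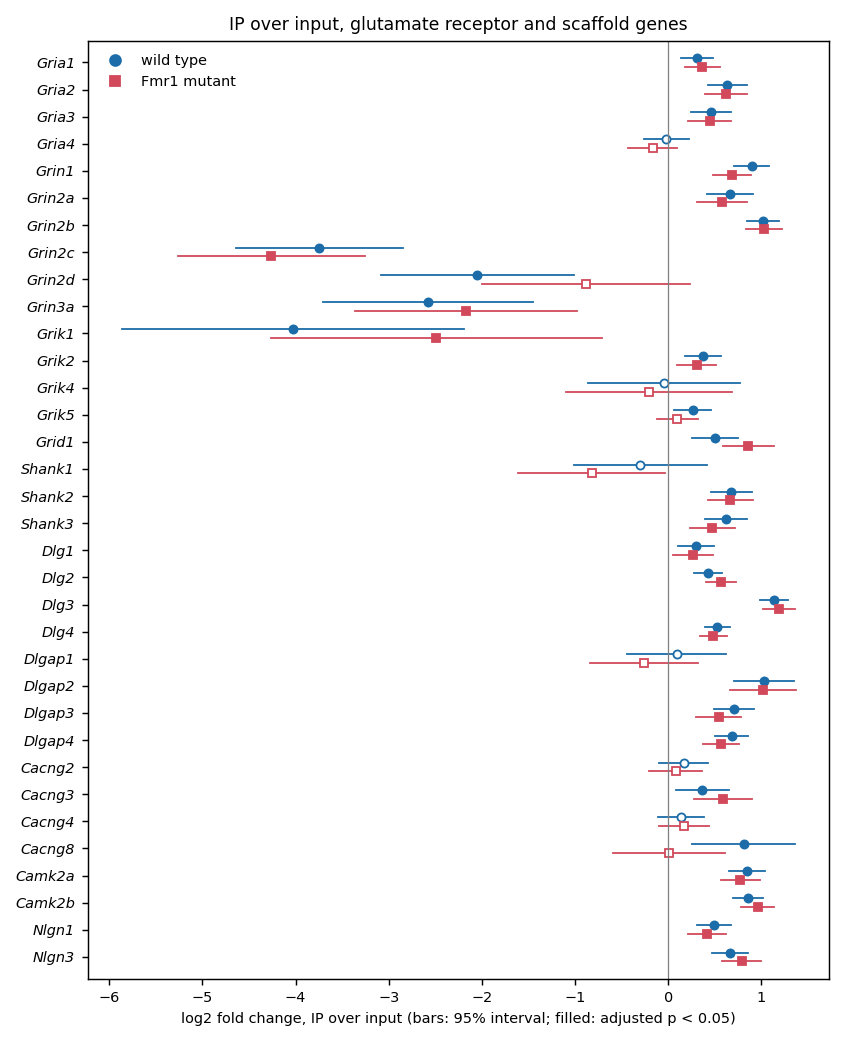
Log2 fold change of IP over input for the 34 genes in wild type (circles, n = 6) and mutant (squares, n = 5), with 95% intervals and filled symbols for an adjusted p under 0.05 in edgeR. Most scaffolds and the major receptor subunits sit to the right of 0, Shank1 lies left of 0 in both genotypes and Dlgap1 in the mutant without passing, and Grin2c, Grin2d, Grin3a and Grik1 lie far to the left in wild type.

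The AMPA receptor is a tetramer of Gria1 to Gria4, and Gria2 sets its calcium permeability through 1 pore position, the Q/R site, where the genome encodes glutamine and RNA editing of the Gria2 message replaces it by arginine. The stretch of coding sequence around this codon is shown for the 4 subunits because their read counts are compared below, and counts per gene do not see the edited base.
Gria1: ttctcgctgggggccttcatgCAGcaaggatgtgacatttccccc
Gria2: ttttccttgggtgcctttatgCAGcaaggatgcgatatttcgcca
Gria3: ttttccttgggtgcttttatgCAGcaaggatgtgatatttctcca
Gria4: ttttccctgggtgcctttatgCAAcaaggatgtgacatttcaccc
Capitals mark the glutamine codon at residue 600 of Gria1, 607 of Gria2, 612 of Gria3 and 608 of Gria4, counted from the start codon, in GENCODE vM21 transcripts (GRCm38/mm10), written 5′ to 3′ in the sense of the mRNA. The stretches lie at chr11:57243073-57243117 (plus strand), chr3:80706890-80706934 (minus), chrX:41610244-41610288 (plus) and chr9:4464116-4464160 (minus). The glutamine codon is CAG in Gria1, Gria2 and Gria3 and CAA in Gria4.

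Gria2 was the leading AMPA subunit in every group. Wild-type libraries ran from 836 to 1292 CPM (median 1154) in IP and from 610.4 to 827 CPM (median 742) in input. The mutants, in the order of animals 2, 3, 9, 10 and 11 that is kept below, stood at 815, 1132, 991, 1140 and 1079 CPM in IP and 539, 733, 633, 752 and 705 CPM in input. Every wild-type IP library lay above every wild-type input, and mutant animal 2 was the lowest mutant in both assays. Here and below, rises, falls and estimates are log2 fold changes, with their SE where one is given. Gria2 rose in IP over input by 0.63 ± 0.10 in wild type (adjusted p = 7.56e-06) and by 0.62 ± 0.11 in mutants (adjusted p = 4.28e-05). Between genotypes its log2 fold change was -0.12 ± 0.11 in IP (95% interval -0.35 to 0.11) and -0.11 ± 0.096 in input (-0.31 to 0.089), and neither passed.

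Gria1, the subunit added to synapses during potentiation, ran from 176 to 228 CPM (median 214) in wild-type IP and from 147 to 194 CPM (median 163) in wild-type input. Mutant animals had 187, 208, 167, 199 and 206 CPM in IP and 139, 158, 124, 157 and 173 CPM in input. IP and input overlapped in both genotypes when animals were set side by side, yet each of the 11 animals was higher in its own IP. The rise was 0.31 ± 0.085 in wild type (adjusted p = 0.00386) and 0.37 ± 0.093 in mutants (adjusted p = 0.00194), smaller in value than that of Gria2. The genotype difference stood at -0.098 ± 0.081 in IP (-0.27 to 0.073) and -0.17 ± 0.097 in input (-0.37 to 0.036).

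Gria3 averaged 249 ± 34.5 CPM in wild-type IP and 181 ± 22.8 CPM in input and rose by 0.46 ± 0.10, with 0.44 ± 0.11 in mutants. Gria4, which is known from interneurons and other fast-spiking cells, averaged 51.9 ± 6.08 CPM in IP and 52.6 ± 8.68 CPM in input in wild type. Its log2 fold change of IP over input did not pass in either genotype, at -0.020 ± 0.12 (95% interval -0.26 to 0.22) and -0.17 ± 0.13 (-0.43 to 0.096). Per kilobase of exon, the only scale on which levels of different genes are set side by side here, Gria2 made up 51.5% ± 2.04 (SD, n = 6) of the AMPA subunit signal in wild-type IP, Gria1 24.6% ± 1.40 and Gria4 5.93% ± 0.793, with Gria3 between 17.5% and 19.1%. In wild-type input Gria2 made up 46.1% ± 1.85, Gria1 27.5% ± 2.45, Gria3 18.2% ± 1.30 and Gria4 8.24% ± 1.03.

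The ratio of Gria1 to Gria2 within a library, per kilobase of exon, does not depend on scaling between libraries. It averaged 0.480 ± 0.0457 (SD, n = 6) in wild-type IP, 0.487 ± 0.0614 (n = 5) in mutant IP, 0.600 ± 0.0680 in wild-type input and 0.577 ± 0.0659 in mutant input. It was lower in IP than in the input of the same animal in 10 of 11 animals, by a mean log2 difference of -0.285 ± 0.042 (SE), with an exact paired permutation p of 0.00195 over 2048 sign swaps (2-sided) and 0.00391 after adjustment over the 4 ratios tested. Between genotypes the log2 ratio differed by 0.018 ± 0.095 in IP and -0.054 ± 0.099 in input (exact permutation, 462 divisions, adjusted p = 0.84 in each over 8 tests).

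**Figure D2:**
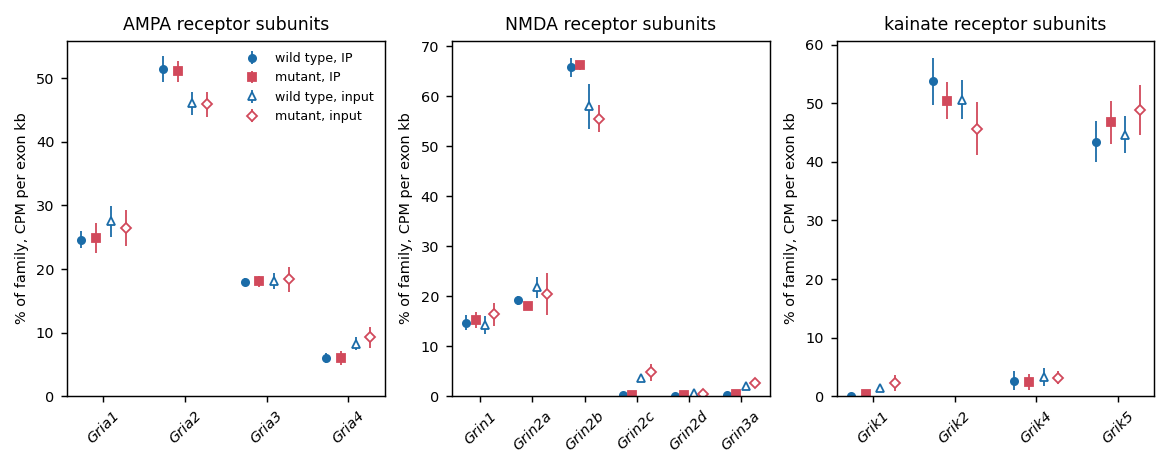
Share of each subunit in the summed CPM per exon kilobase of the listed members of its receptor family, mean and SD over animals, for wild-type and mutant IP (filled) and input (open). Grik3 is not among the listed kainate members. Gria2 and Grin2b take the largest AMPA and NMDA shares in all 4 groups, and both shares are higher in IP than in input.

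NMDA receptors join the obligate subunit Grin1, which binds glycine, with Grin2 subunits, which bind glutamate and set the kinetics. The Grin2 subunits end in a short motif that PDZ domains of Dlg proteins bind, and the coding ends of the 4 are shown here. A relation of these ends to levels in the pulldown was not tested.
Grin2a: atgcctagtattGAATCTGATGTC
Grin2b: ctttctagtattGAGTCTGATGTC
Grin2c: atctccagcctgGAATCAGAAGTG
Grin2d: ttctccagcctgGAGTCCGAGGTA
Each line gives the last 24 coding bases before the stop codon, 5′ to 3′ in the sense of the mRNA, with the last 4 codons in capitals, at chr16:9577830-9577853, chr6:135732101-135732124, chr11:115249574-115249597 and chr7:45832783-45832806 (GENCODE vM21, GRCm38/mm10, all on the minus strand). The codon at the third place from the end is for serine in all 4 and the last codon encodes valine in all 4.

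Grin1 ran from 92.8 to 143 CPM (median 112) in wild-type IP and from 54.1 to 73.4 CPM (median 60.4) in wild-type input. Mutant animals stood at 94.6, 98.5, 107, 118 and 97.5 CPM in IP and at 60.6, 68.7, 60.4, 68.5 and 62.8 CPM in input. No IP library overlapped an input library of its genotype. Grin1 was higher in IP by 0.90 ± 0.092 in wild type (adjusted p = 6.03e-09) and 0.68 ± 0.10 in mutants (adjusted p = 2.61e-06). The difference between genotypes was -0.15 ± 0.095 in IP (95% interval -0.35 to 0.051) and 0.052 ± 0.094 in input (-0.14 to 0.25). The gene shares 13.47% of its exon bases with the antisense gene Grin1os, where reads without strand cannot be told apart. How reads in these shared bases were counted was not checked.

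Grin2b, the subunit with slow kinetics that predominates early in development and stays high in the forebrain, was the highest NMDA subunit. Its wild-type IP libraries ran from 1107 to 1394 CPM (median 1358), and its wild-type inputs from 577 to 808 CPM (median 628). In mutants it measured 979.5, 1199, 1244, 1123 and 1200 CPM in IP and 496, 609.9, 614, 502 and 600.2 CPM in input. The lowest IP library lay above the highest input in both genotypes, and wild-type animal 1 was the low value among wild-type IP. The rise in IP was 1.02 ± 0.085 (adjusted p = 1.36e-10) and 1.03 ± 0.093 (adjusted p = 7.7e-10), the largest of the receptor subunits in each genotype. Mutant against wild type gave -0.19 ± 0.075 in IP (-0.34 to -0.030, adjusted p = 0.583) and -0.21 ± 0.096 in input (-0.41 to -0.0054, adjusted p = 0.709). Without animals 1, 3, 9 and 12 these were -0.29 ± 0.076 and -0.36 ± 0.10, with adjusted p of 0.269 and 0.192 in edgeR.

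Grin2a, the faster subunit that rises with maturation, had the smallest genotype p of the 34 genes in IP. Wild-type IP ran from 229 to 309 CPM (median 286) and wild-type input from 154 to 192 CPM (median 175). Mutants had 193, 245, 242, 217 and 234 CPM in IP and 122, 147, 235, 131 and 124 CPM in input. All 5 mutant IP values lay below the wild-type median, but wild-type animal 1 fell among them, so the groups overlapped. In input mutant animal 9 was the highest of the 11 and the other mutants were the 4 lowest. The genotype log2 fold change was -0.29 ± 0.086 in IP (95% interval -0.47 to -0.11, adjusted p = 0.382) and -0.21 ± 0.14 in input (-0.52 to 0.092, adjusted p = 0.83). Without animals 1, 3, 9 and 12 the estimates were -0.38 ± 0.086 (adjusted p = 0.225) and -0.45 ± 0.087 (adjusted p = 0.0614), which did not pass either. Grin2a rose in IP over input by 0.66 ± 0.12 in wild type and 0.57 ± 0.13 in mutants.

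The ratio of Grin2a to Grin2b, per exon kilobase, was 0.292 ± 0.0211 (SD, n = 6) in wild-type IP and 0.379 ± 0.0642 in wild-type input, and 0.272 ± 0.00636 (n = 5) and 0.370 ± 0.0940 in the mutant. It was lower in IP in 11 of 11 animals, by -0.38 ± 0.075 on the log2 scale (exact paired permutation p = 0.000977, adjusted p = 0.00391). Genotypes differed by -0.098 ± 0.045 in IP (exact permutation p = 0.0909, adjusted p = 0.714) and by -0.050 ± 0.18 in input (adjusted p = 0.84).

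Grin2c, known best from the cerebellum, was near the limit of counting in IP. Its wild-type IP libraries ran from 0.242 to 1.32 CPM (median 0.460), with 6 to 39 reads each, and its inputs from 5.11 to 10.3 CPM (median 8.09), with 127 to 291 reads. Mutants held 0.121, 0.257, 1.06, 0.381 and 0.923 CPM in IP and 5.04, 15.2, 8.16, 8.82 and 12.6 CPM in input. Every input library lay above every IP library. The fall in IP over input was -3.75 ± 0.44 in wild type (adjusted p = 6.73e-08) and -4.26 ± 0.49 in mutants (adjusted p = 6.69e-08), and its share of the NMDA signal was 0.146% ± 0.0901 (SD, n = 6) in wild-type IP against 3.54% ± 0.756 in input. The genotype estimates had wide intervals, -1.52 to 1.21 in IP and -0.20 to 0.81 in input.

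Grin3a, a glycine-binding subunit that lowers calcium entry, ran from 0.709 to 4.16 CPM (median 1.66) in wild-type IP and from 6.83 to 15.3 CPM (median 10.6) in wild-type input. Mutant values were 0.762, 4.63, 7.86, 1.32 and 0.677 CPM in IP and 9.76, 17.9, 21.7, 6.995 and 12.2 CPM in input. Each animal had less in IP than in its input, and mutant animals 3 and 9 were the highest mutants in both assays. It fell in IP, with estimates of -2.58 ± 0.54 in wild type (adjusted p = 0.000445) and -2.17 ± 0.57 in mutants (adjusted p = 0.00353). The values without animals 1, 3, 9 and 12 were -2.91 ± 0.33 and -3.37 ± 0.40. The genotype estimate in IP was 0.73 ± 0.63 with all animals and -0.41 ± 0.56 without animals 1, 3, 9 and 12, which turned its direction.

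Grin2d, a subunit of interneurons and midbrain, averaged 0.492 ± 0.212 CPM in wild-type IP and 2.07 ± 1.06 CPM in wild-type input, where the libraries held 28 to 100 reads. It fell in IP in wild type, at -2.05 ± 0.51 (adjusted p = 0.00136) and stood at -0.88 ± 0.54 in mutants (95% interval up to 0.24, adjusted p = 0.193). The interaction, which tests whether IP over input differs by genotype, was 1.17 ± 0.73 with an adjusted p of 1.0, so no difference between the genotypes was shown. The mutant value turned to 0.28 ± 0.73 without animals 1, 3, 9 and 12, and the interaction was 2.34 ± 0.96 (adjusted p = 0.889). The annotated gene Gm45441 overlaps 9.66% of its exon bases.

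Beside the low IP levels of these subunits, the 8 astrocyte markers summed to 194 to 362 CPM in wild-type IP and 2493 to 3333 CPM in wild-type input, the 8 interneuron markers to 14.2 to 22.1 and 191 to 236 CPM, and the 6 precursor markers to 2.67 to 6.02 and 97.0 to 113.5 CPM. The part of these cells in the input levels of Grin2c, Grin2d, Grin3a and Grik1 was not tested. In bulk libraries of this kind, fewer cells of a type and less RNA per cell cannot be told apart.

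Kainate receptors are built from Grik1 to Grik3, which can form channels alone, with Grik4 and Grik5, which need one of them. Grik1 was almost absent from IP. Its wild-type IP libraries ran from 0 to 0.271 CPM (median 0.0581), with 0 to 15 reads each, and its inputs from 0.691 to 2.66 CPM (median 1.39), with 18 to 68 reads. In mutants it stood at 0.0173, 0.856, 1.02, 0.117 and 0 CPM in IP and at 0.918, 4.45, 2.93, 1.65 and 1.37 CPM in input. IP was below input in all 11 animals, and mutant animals 3 and 9 were the highest of the 11 in IP. The fall was -4.03 ± 0.90 in wild type (adjusted p = 0.000476) and -2.49 ± 0.87 in mutants (adjusted p = 0.0192), and the mutant call was lost without animal 10 (-2.34 ± 0.97, adjusted p = 0.056). The falls without animals 1, 3, 9 and 12 were -5.51 ± 1.01 and -4.65 ± 1.11 (adjusted p = 0.000174 and 0.00219). Between genotypes it was tested in input only, at 0.65 ± 0.44 (-0.28 to 1.58), and at -0.34 ± 0.52 without animals 1, 3, 9 and 12.

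Among the 4 kainate members listed, Grik2 and Grik5 made up most of the signal per exon kilobase, 53.8% ± 4.01 and 43.5% ± 3.46 in wild-type IP (SD, n = 6). Grik3 is not a member and is left out of these shares. Its wild-type mean was 0.785 CPM per exon kilobase in IP and 5.41 in input. Beside it in wild-type input, Grik2 stood at 7.60 and Grik5 at 6.65. Grik2 averaged 131 ± 13.9 CPM in wild-type IP and 101 ± 13.7 CPM in input and rose by 0.38 ± 0.093 and, in the mutant, by 0.30 ± 0.10. Its genotype estimate in IP was -0.21 ± 0.086 (-0.39 to -0.034, adjusted p = 0.584). Grik5 rose by 0.26 ± 0.097 in wild type (adjusted p = 0.0259), a call lost when animal 12, 13, 14 or 20 was left out (0.26, 0.20, 0.26 and 0.24, adjusted p from 0.0501 to 0.122) or all of 1, 3, 9 and 12 (0.29, adjusted p = 0.0823), and stood at 0.097 ± 0.11 in mutants, with an interaction of -0.17 ± 0.14 (adjusted p = 1.0). Grik4 was low in both assays, with wild-type means of 2.85 ± 1.66 CPM in IP and 2.91 ± 1.33 CPM in input, and passed in neither genotype (-0.048 ± 0.40 and -0.21 ± 0.44).

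Grid1, a delta subunit that binds cerebellin and neurexin across the cleft rather than passing glutamate current, averaged 54.1 ± 5.36 CPM in wild-type IP and 38.3 ± 6.39 CPM in wild-type input, and 60.2 ± 13.7 CPM and 33.2 ± 3.29 CPM in the mutant. It rose in IP by 0.50 ± 0.12 in wild type and by 0.86 ± 0.13 in mutants. The interaction was 0.36 ± 0.18 (95% interval -0.0046 to 0.73, adjusted p = 1.0). Grid1 was 1 of 5 members with a positive genotype estimate in IP, at 0.16 ± 0.12, and it was negative in input, at -0.21 ± 0.12. Leaving out animals 1, 3, 9 and 12 gave an IP estimate of -0.0071 ± 0.14 and an interaction of 0.18 ± 0.20.

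TARPs carry AMPA receptors to the surface and bind Dlg4 with their ends. The coding end of Cacng3 and those of other members with the same kind of ending are shown, since this end is what joins receptor, adaptor and scaffold in 1 complex.
Cacng3: gccaacagacgtACCACGCCTGTC
Gria1: atgcccttgggaGCCACAGGATTG
Dlgap2: atccctgaggccCAGACGCGGCTC
Dlgap3: atccccgaggccCAGACCAGGCTG
Nlgn3: cactcacactccACTACCCGTGTA
These are again the last 24 coding bases with the last 4 codons in capitals, at chr7:122768820-122768843, chr11:57327620-57327643, chr8:14846682-14846705, chr4:127236342-127236365 and chrX:101320236-101320259 (all on the plus strand). A search of 1 coding sequence per gene for a serine or threonine codon at that place with a valine, leucine or isoleucine codon last found 16 of the 34 members (47.1%) and 718 of 14044 tested genes (5.11%). The 16 were Gria1, the 4 Grin2 subunits, Grid1, the 4 TARPs, the 4 Dlgap genes and both neuroligins. A match describes the letters only, and other transcripts of a gene can end differently.

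Cacng3 ran from 78.9 to 139 CPM (median 84.0) in wild-type IP and from 63.0 to 106 CPM (median 69.6) in wild-type input. Mutant libraries were close together in IP, at 86.0, 82.7, 84.6, 88.3 and 89.0 CPM, and stood at 60.5, 74.3, 47.6, 48.9 and 55.6 CPM in input. Wild-type animal 20 was the highest wild-type input and lay apart from the other 5. Cacng3 had the smallest genotype p of the members in input, with a log2 fold change of -0.38 ± 0.14 (95% interval -0.67 to -0.085, adjusted p = 0.605), and stood at -0.15 ± 0.12 in IP. It rose in IP over input by 0.36 ± 0.14 in wild type (adjusted p = 0.03) and 0.58 ± 0.15 in mutants. The wild-type call was lost without animal 1, 13 or 14 (0.37, 0.33 and 0.36, adjusted p from 0.0514 to 0.0954) and without animals 1, 3, 9 and 12 (0.38, adjusted p = 0.0557).

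Cacng2 (stargazin) and Cacng4 did not pass in IP over input in either genotype, with estimates of 0.16 ± 0.13 and 0.14 ± 0.12 in wild type and 0.080 ± 0.14 and 0.17 ± 0.13 in mutants. Their wild-type levels were 46.4 ± 7.74 CPM and 79.1 ± 11.6 CPM in IP. Cacng8, a TARP known from the hippocampus, was low, at 5.65 ± 1.74 CPM in wild-type IP and 3.21 ± 1.22 CPM in wild-type input. It rose by 0.81 ± 0.27 in wild type (adjusted p = 0.0142) and stood at 0.012 ± 0.29 in mutants, and its interaction was -0.80 ± 0.40 (-1.61 to 0.021, adjusted p = 1.0). Its wild-type call was lost without animal 4, 12 or 14 (0.72, 0.70 and 0.69, adjusted p from 0.0534 to 0.0597) and in limma-voom (0.57 ± 0.28, adjusted p = 0.0845).

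Dlg proteins are the membrane-associated scaffolds, and Dlg4 (PSD-95) is the most studied of them. Dlg4 ran from 539 to 689 CPM (median 602) in wild-type IP and from 407 to 440.2 CPM (median 422) in wild-type input. Mutants had 631, 551, 545, 647 and 578 CPM in IP and 429.9, 456, 393, 431 and 401 CPM in input. The lowest IP library exceeded the highest input in both genotypes, and the mutant range lay within that of wild type in IP and around it in input. Dlg4 rose in IP by 0.53 ± 0.064 in wild type (adjusted p = 1.06e-07) and 0.48 ± 0.070 in mutants (adjusted p = 2e-06). Its genotype difference was small beside its interval, -0.035 ± 0.069 in IP (95% interval -0.18 to 0.11, adjusted p = 0.951) and -0.0046 ± 0.068 in input (-0.15 to 0.14, adjusted p = 0.994).

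Dlg3 (SAP102), the X-linked member of the family, had the largest rise of the 34 genes. It ran from 206 to 254 CPM (median 226) in wild-type IP and from 92.9 to 125 CPM (median 102) in wild-type input. Mutants stood at 229.6, 222, 222, 233 and 226 CPM in IP and 106, 88.6, 112, 102 and 89.0 CPM in input. IP exceeded input without overlap in both genotypes. The log2 fold change of IP over input was 1.14 ± 0.075 in wild type (adjusted p = 1.53e-12) and 1.19 ± 0.083 in mutants (adjusted p = 5.25e-12). Between genotypes it was -0.0013 ± 0.062 (SE) in IP (-0.13 to 0.13) and -0.066 ± 0.093 in input.

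Dlg2 (PSD-93) was the highest Dlg per exon kilobase, at 69.8 ± 8.37 CPM per exon kilobase in wild-type IP against 45.9 ± 4.31 for Dlg4, 39.0 ± 2.72 for Dlg3 and 23.7 ± 4.49 for Dlg1. The lengths used, 16.28 kb for Dlg2 and 13.251 kb for Dlg4, join the exons of all annotated transcripts, and the order depends on them. Dlg2 rose in IP by 0.42 ± 0.073 and, in the mutant, 0.57 ± 0.080. Dlg1 (SAP97) rose by 0.29 ± 0.094 in wild type and 0.27 ± 0.10 in mutants (adjusted p = 0.0358). The mutant call of Dlg1 was lost without animal 2, 10 or 11 (0.21, 0.27 and 0.25, adjusted p from 0.0732 to 0.126), with the stricter filter on low counts (adjusted p = 0.0563) and in DESeq2 (0.0917). The log2 ratio of Dlg2 to Dlg4 differed between IP and input by -0.016 ± 0.058 over 11 animals (exact paired permutation, adjusted p = 0.792) and between genotypes by 0.093 ± 0.096 in IP and -0.091 ± 0.080 in input (exact permutation, adjusted p = 0.714 in each).

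Dlgap proteins bind Dlg on one side and Shank on the other. Dlgap3 (SAPAP3), whose loss in mice is known to cause excessive grooming and altered corticostriatal transmission, had the second smallest genotype p in IP. It ran from 89.8 to 125 CPM (median 103) in wild-type IP and from 57.0 to 73.7 CPM (median 65.0) in wild-type input. Mutants stood at 99.7, 62.6, 76.7, 92.5 and 74.0 CPM in IP and 58.6, 63.0, 54.8, 47.7 and 55.1 CPM in input. In IP 3 mutants lay below every wild-type library and animals 2 and 10 fell within the wild-type range. The genotype log2 fold change was -0.38 ± 0.12 in IP (95% interval -0.63 to -0.13, adjusted p = 0.427) and -0.22 ± 0.091 in input (-0.41 to -0.033, adjusted p = 0.649). It rose in IP over input by 0.71 ± 0.11 in wild type and 0.54 ± 0.12 in mutants, where 4 of 5 animals were higher in their own IP.

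Dlgap2 ran from 159.8 to 303 CPM (median 192) in wild-type IP and from 67.2 to 156 CPM (median 94.9) in wild-type input. Mutants held 186, 159.5, 172, 196 and 176 CPM in IP and 89.3, 85.2, 96.5, 84.3 and 84.7 CPM in input. IP lay above input without overlap in both genotypes. The rise was 1.02 ± 0.16 (adjusted p = 7.64e-06) and 1.01 ± 0.17 (adjusted p = 3.23e-05), and the genotype estimates were -0.22 ± 0.13 in IP and -0.22 ± 0.16 in input. Without wild-type animal 20 they were -0.080 and -0.060, and without animals 1, 3, 9 and 12 they were -0.27 ± 0.14 and -0.42 ± 0.15. Dlgap4 averaged 149.9 ± 19.5 CPM in wild-type IP, rose by 0.68 ± 0.086 and 0.56 ± 0.094, and had a genotype estimate of -0.19 ± 0.092 in IP (adjusted p = 0.653). Dlgap1 did not pass, at 0.089 ± 0.25 in wild type (95% interval -0.44 to 0.62) and -0.26 ± 0.28 in mutants (-0.84 to 0.32). With animals 1, 3, 9 and 12 left out, these were 0.19 ± 0.11 and 0.034 ± 0.12, the second with its direction turned.

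Shank proteins tie the Dlg and Dlgap layer to Homer and actin, and Shank3 is the one most tied to striatal synapses. Shank3 ran from 55.2 to 89.6 CPM (median 69.5) in wild-type IP and from 37.5 to 56.1 CPM (median 45.5) in wild-type input. Mutants had 62.3, 49.0, 50.7, 59.2 and 56.4 CPM in IP and 39.3, 43.3, 36.5, 36.4 and 44.4 CPM in input. In IP the mutants filled the lower part of the wild-type range, with animals 3 and 9 below it and 4 wild-type libraries above every mutant. The genotype estimate was -0.34 ± 0.12 in IP (95% interval -0.58 to -0.095, adjusted p = 0.491) and -0.20 ± 0.11 in input (-0.42 to 0.021, adjusted p = 0.772). Shank3 rose in IP over input by 0.62 ± 0.11 in wild type (adjusted p = 2.79e-05) and 0.47 ± 0.12 in mutants (adjusted p = 0.00179).

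Shank2 averaged 130.4 ± 15.3 CPM in wild-type IP and 81.5 ± 10.5 CPM in input and rose by 0.68 ± 0.11 in wild type and 0.67 ± 0.12 in mutants. Shank1 averaged 36.8 ± 7.49 CPM in wild-type IP and 45.2 ± 8.89 CPM in wild-type input and did not pass, at -0.30 ± 0.34 (-1.02 to 0.42) in wild type and -0.82 ± 0.38 in mutants (adjusted p = 0.0808). With animal as a replicate block, the mutant value was -0.54 ± 0.19 and passed (adjusted p = 0.0309), as it did in DESeq2 (-0.86 ± 0.37, adjusted p = 0.0455). The value was -0.083 ± 0.16 (adjusted p = 0.722) without animals 1, 3, 9 and 12. The mutant inputs held 24.5, 63.0, 126, 21.9 and 29.6 CPM, with animals 3 and 9 high and the other 3 close together.

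CaMKII is the kinase that calcium through NMDA receptors activates, and its 2 forebrain subunits were the highest members per exon kilobase, at 235 ± 22.2 CPM per exon kilobase for Camk2a and 186 ± 16.4 for Camk2b in wild-type IP. Camk2a ran from 1566 to 1935 CPM (median 1768) in wild-type IP and from 859 to 1083 CPM (median 961) in wild-type input. Mutants stood at 1522, 1357, 1624, 1739 and 1680 CPM in IP and 787, 927, 1261, 809 and 851 CPM in input. IP and input did not overlap, and mutant animal 9 was the highest of all inputs. Camk2a rose by 0.85 ± 0.094 in wild type (adjusted p = 2.35e-08) and 0.77 ± 0.10 in mutants (adjusted p = 5.68e-07), and Camk2b rose by 0.86 ± 0.078 and 0.96 ± 0.086. Between genotypes Camk2a stood at -0.14 ± 0.075 in IP (-0.30 to 0.015) and -0.079 ± 0.11 in input (-0.31 to 0.15). The input value was -0.20 without mutant animal 9, and without animals 1, 3, 9 and 12 the values were -0.079 ± 0.082 in IP and -0.23 ± 0.077 in input. Leaving out 1 animal gave -0.20 to -0.025 in input. The log2 ratio of Camk2a to Camk2b differed by -0.076 ± 0.066 between IP and input (exact paired permutation, adjusted p = 0.411) and by -0.12 ± 0.11 between genotypes in IP (exact permutation, adjusted p = 0.714).

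Neuroligins bind presynaptic neurexins across the cleft. Nlgn3 ran from 95.2 to 128 CPM (median 112) in wild-type IP and from 57.3 to 82.3 CPM (median 69.8) in wild-type input. Mutants lay close together in IP, at 98.9, 103, 103, 100.1 and 101 CPM, and stood at 51.2, 74.9, 58.0, 52.9 and 55.5 CPM in input. In input 3 mutants lay below every wild-type library, and animal 3 stood above the wild-type median. The genotype estimate was -0.28 ± 0.11 in input (95% interval -0.52 to -0.044, adjusted p = 0.638) and -0.14 ± 0.080 in IP (-0.31 to 0.026). It rose in IP over input by 0.66 ± 0.093 and 0.79 ± 0.10, though 41.24% of its exon bases overlap the annotated gene Gm21986. How reads in the shared bases were counted was not checked. Nlgn1 rose by 0.49 ± 0.090 in wild type and 0.42 ± 0.099 in mutants, and the mutant call was lost without animals 1, 3, 9 and 12 (0.27 ± 0.12, adjusted p = 0.0692). Of the exon bases of Nlgn1, 9.16% overlap A830092H15Rik, and of those of Cacng2, 5.86% overlap A730060N03Rik.

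**Figure D3:**
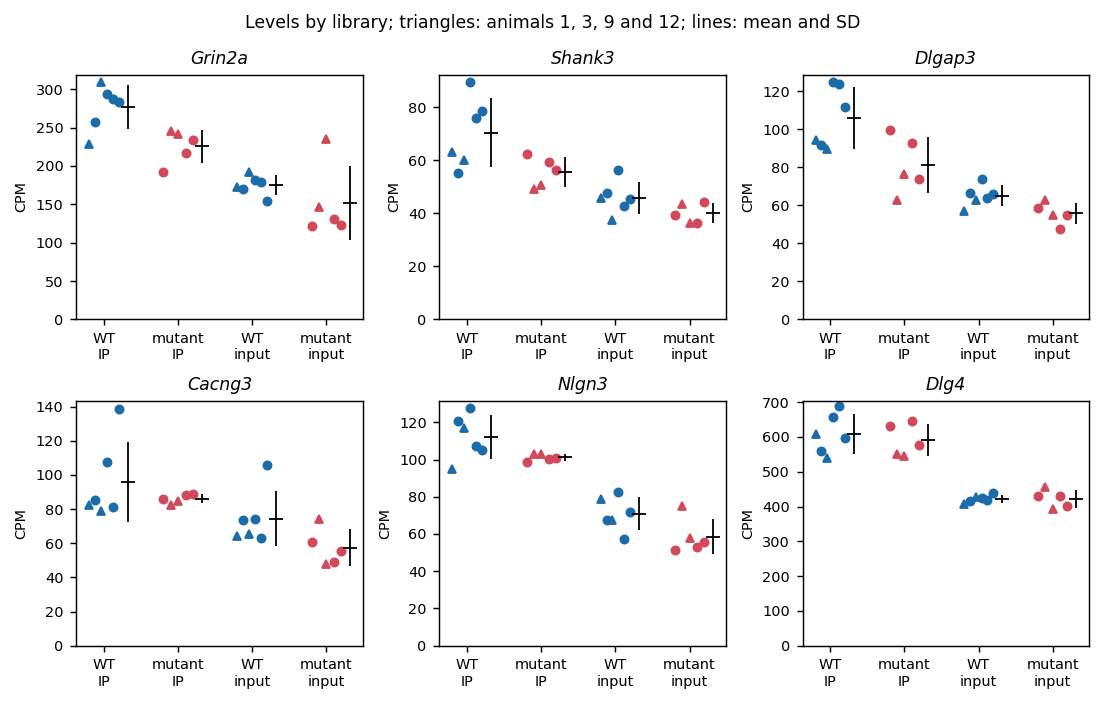
CPM in every library for the members with the 3 smallest genotype p in IP (Grin2a, Shank3, Dlgap3), the first 2 in input (Cacng3, Nlgn3) and Dlg4, with mean and SD beside each group. Mutant points sit mostly in or below the lower part of the wild-type range for the first 5 and overlap it, and Dlg4 overlaps broadly between genotypes.

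Ranked by level per exon kilobase, Camk2a and Camk2b led in each of the 4 groups, ahead of Gria2 and Dlg2. The length joins all annotated exons of a gene, so the order depends on which transcripts are annotated. In wild-type IP the level was highest after CaMKII for Gria2 (72.3 ± 10.8 CPM per exon kilobase) and Dlg2 (69.8 ± 8.37), which did not differ beyond their spread, then for Grin2b (52.9 ± 4.32) and Dlg4 (45.9 ± 4.31). Cacng3, Gria1 and Dlgap2 lay within 1 SD of each other, at 34.5, 34.4 and 33.8 CPM per exon kilobase. The lowest were Grik4 (0.478), Grin3a (0.152), Grin2c (0.120), Grin2d (0.0739) and Grik1 (0.0135). In wild-type input Dlg2 (52.1 ± 5.44) came before Gria2 (46.6 ± 4.77), within 1 SD of each other, and Grin2b was at 26.2 ± 3.55.

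**Figure D4:**
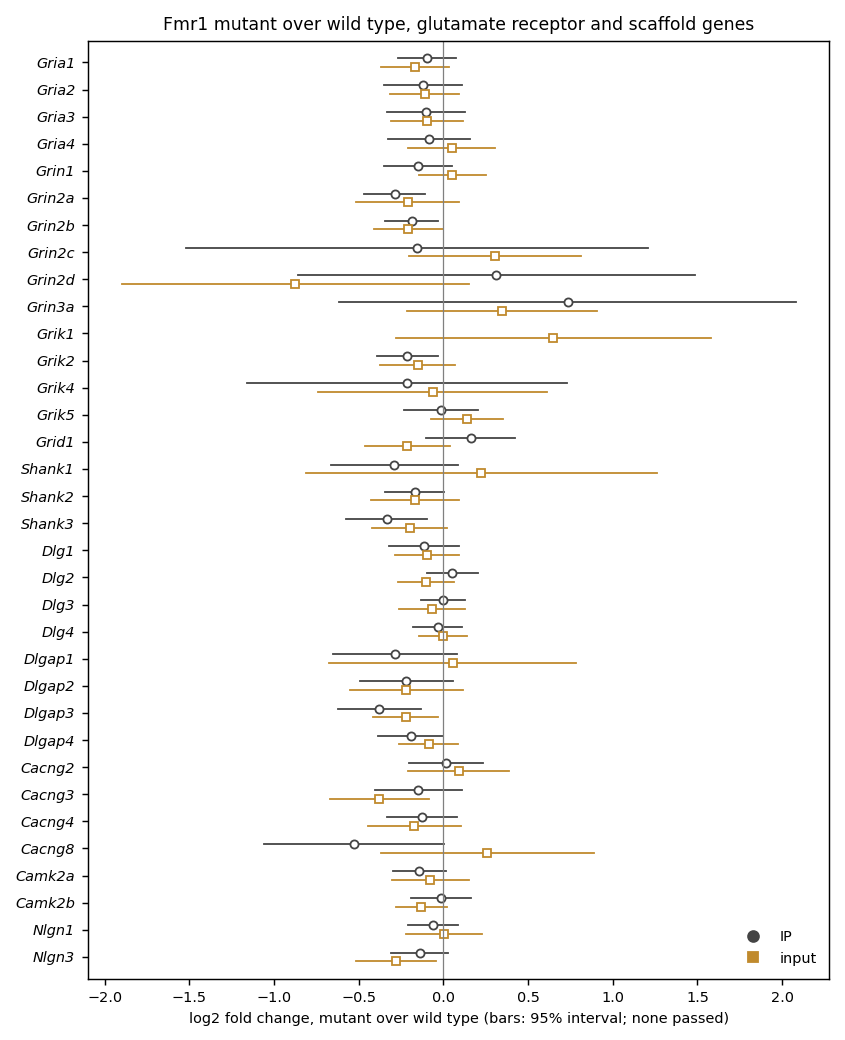
Log2 fold change of mutant over wild type for the members in IP (circles) and input (squares), with 95% intervals. Most estimates lie between -0.4 and 0.1, and the intervals are wide for members with few reads (Grin2c, Grin2d, Grin3a, Grik1) and, in input, for Shank1 and Dlgap1.

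The effect of genotype was then compared between IP and input, which asks whether IP over input differs by genotype. IP is RNA on the ribosomes of D1 neurons and input is RNA of all cells in the lysate. Ribosome binding and cell composition therefore cannot be told apart in this value. The interaction passed for 0 of 34 members (background 0.0% of 17311 genes) in edgeR, with 0 members at an unadjusted p below 0.05 (background 4.1%), and for 0 members in DESeq2 and limma-voom. The median interaction was -0.035, and the values ran from -0.80 for Cacng8 to 1.54 for Grik1. The 95% interval was -0.24 to 0.15 for Dlg4, -0.24 to 0.27 for Grin2b and -0.36 to 0.21 for Camk2a, and wider for Dlgap1 (-1.14 to 0.43) and Shank1 (-1.58 to 0.54). IP and input share their animals, so that the genotype values in both assays are not independent. In the authors' deposited table of genotype differences, 0 members had an adjusted p under 0.05, with the smallest at 0.149 in IP (30 members with a value) and 0.44 in input.

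The 4 animals with cortical markers were set against the other 7 as a description, with no test. In IP, Grin3a lay between 2.16 and 7.86 CPM in the 4 and between 0.677 and 1.80 CPM in the 7, Grik4 between 3.66 and 5.42 against 0.677 to 3.09 CPM, and Grik1 between 0.158 and 1.02 against 0 to 0.117 CPM. Grik1 was not among the genes tested in IP, so 2 of the 33 members tested had every one of the 4 above every one of the 7, beside 1.9% of all genes tested. Dlg3 was the 1 member with all 4 below, at 206 to 222 against 223 to 254 CPM (background 0.422%). In input, Shank1 lay at 52.3 to 125.7 CPM in the 4 and 21.9 to 49.8 in the 7, and Dlgap1 at 133 to 256 against 77.2 to 129.5 CPM (2 members, background 1.81%). The part of cortical cells in these levels was not tested.

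Without animals 1, 3, 9 and 12, still 0 members passed between genotypes in edgeR, beside 8 of 14734 genes in IP and 7 of 16693 in input. The estimates then moved further down: the median was -0.23 in IP, with 30 of the members negative, and -0.21 in input, with 28 negative. The medians over all genes tested in this fit were -0.0023 in IP and 0.0031 in input. Shank1 in input went from 0.22 ± 0.46 with all animals to -0.69 ± 0.16 without the 4 (adjusted p = 0.11), and Dlgap1 from 0.055 ± 0.33 to -0.29 ± 0.12 (adjusted p = 0.405). In IP, Shank1 stood at -0.51 ± 0.13 (adjusted p = 0.273) and Dlgap1 at -0.43 ± 0.10 (adjusted p = 0.257).

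**Figure D5:**
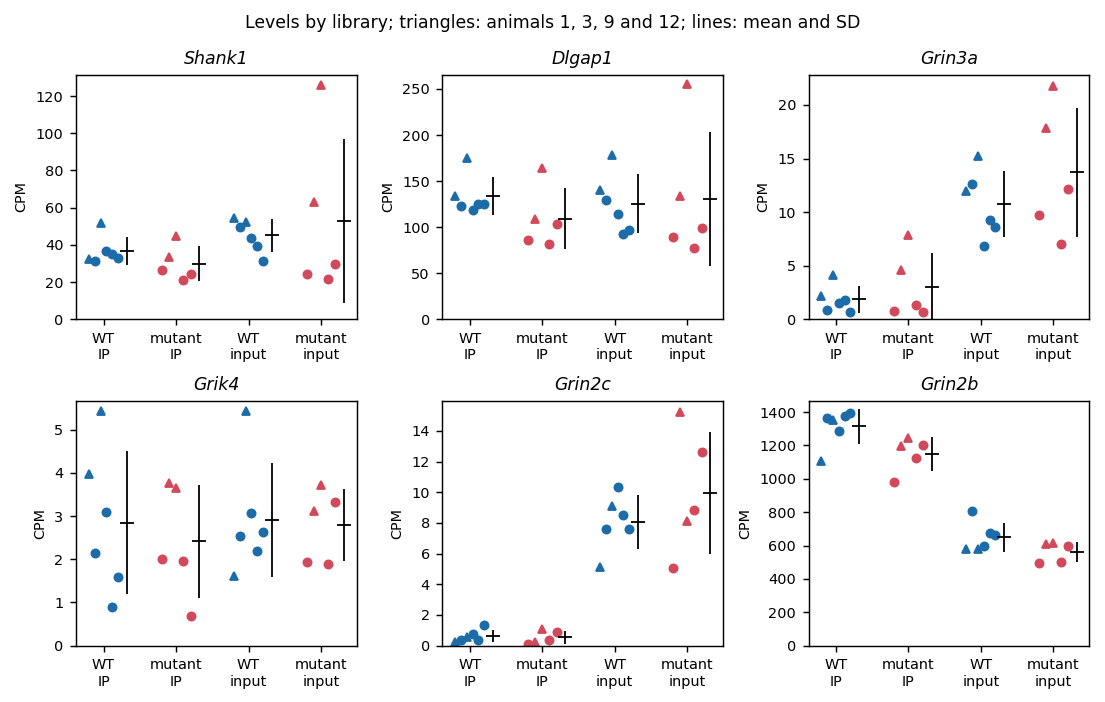
CPM in every library for 6 members, with triangles for animals 1, 3, 9 and 12, circles for the other 7, and mean and SD beside each group. Shank1 and Dlgap1 in input and Grin3a and Grik4 in IP are highest in triangles, Grin2c is low in all IP libraries, and Grin2b is higher in IP than in input in both kinds of animal.

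A wider list of 54 genes of the same pathway, such as further auxiliary subunits, adaptors, spine regulators and trans-synaptic partners, was read in the same fits. In IP over input 28 of 53 tested were higher and 5 lower in wild type, and 25 and 5 in mutants, where the shares over all genes were 21.8% and 27.8%, and 20.9% and 26.4%. Their median estimate was 0.39 and 0.27, against -0.11 for all genes tested. The 3 smallest p among those that rose in wild type belonged to Cnksr2, a scaffold of the density (1.22 ± 0.074), Nrxn3, a presynaptic neurexin gene also expressed by striatal neurons (0.85 ± 0.063), and Lrrc7 (densin, 0.98 ± 0.075). Kalrn, an exchange factor that shapes spines, was among the first 3 in the mutant, at 1.94 ± 0.15, with Cnksr2 at 1.18 ± 0.081 and Nrxn3 at 0.88 ± 0.069. The falls with the smallest p in wild type were those of Cacng7, a TARP-related subunit (-1.58 ± 0.17), Tanc1, a scaffold (-0.84 ± 0.17), and Camk2n1, a CaMKII inhibitor (-0.36 ± 0.083). In the mutant they were Cacng7 (-1.90 ± 0.19), Nrxn2 (-1.08 ± 0.18) and Tanc1 (-1.05 ± 0.19).

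Between genotypes 0 of 52 of these passed in IP and 0 of 53 in input, with 43 and 40 negative and medians of -0.099 and -0.073, and 10 and 8 at an unadjusted p below 0.05 in edgeR. Over all genes 0.0553% and 0.0183% passed, 49.3% and 49.5% were negative, and 7.62% and 6.84% were at an unadjusted p below 0.05. In IP the smallest p among negative estimates were those of Iqsec1, an exchange factor for Arf6, at -0.30 ± 0.073, Gsg1l, an AMPA receptor auxiliary subunit, at -0.31 ± 0.088 and Tanc2, a scaffold, at -0.23 ± 0.067. Among positive estimates they were those of Neto1, an auxiliary subunit of kainate receptors, at 0.16 ± 0.062, Grip2, an AMPA receptor adaptor, at 0.38 ± 0.33 and Shisa6, an AMPA receptor auxiliary subunit, at 0.21 ± 0.46. In input the negative ones were Gsg1l at -0.43 ± 0.10, Nlgn2, the neuroligin of inhibitory synapses, at -0.34 ± 0.11 and Akap5, a kinase anchor, at -0.33 ± 0.11, and the positive ones Cacng7 at 0.31 ± 0.14, Tanc1 at 0.27 ± 0.15 and Pick1 at 0.28 ± 0.17. The smallest adjusted p of these was 0.216, for Iqsec1 in IP. The interaction passed for 0 of 53. Its smallest p were those of Neto1 (0.17 ± 0.088), Nlgn2 (0.30 ± 0.17) and Akap5 (0.17 ± 0.14) above 0 and Begain (-0.38 ± 0.22), Nrxn2 (-0.40 ± 0.25) and Magi1 (-0.18 ± 0.13) below it, each with an adjusted p of 1.0.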

How the data were processed

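Libraries were made without strand information from IP and input RNA of each animal, per the labels' protocols. Reads were handled with STAR, featureCounts and DESeq2 on mm10, per the submitters' processing notes; roles and versions are not given in the sources used here. The deposited tables hold raw read counts per gene for 55341 symbols. The authors' deposited tables of genotype differences hold log2 fold changes and p-values, of which only the adjusted p-values are used here.

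The 34 members and the gene lists were chosen with earlier results of these data known. From the counts, edgeR 4.0.16 in R 4.3.3 (TMM scaling, filterByExpr, robust quasi-likelihood test, Benjamini-Hochberg adjustment over all genes tested, threshold 0.05) compared genotypes within IP and within input, and IP with input and the interaction over all 22 libraries. Log2 fold changes, and the standard errors (SE) and 95% intervals where given, come from this fit, as do adjusted p. Values from another tool, fit or test, or with animals left out, are named as such. A value after ± is an SD beside a CPM level or a share and an SE beside a log2 fold change. Levels per exon kilobase use the union of exons in GENCODE vM21, in which all 55341 symbols were found. The union can be longer than the transcripts present, so orders, shares and levels of ratios between genes depend on the annotation. Ratios of 2 genes took 0.5 reads added and exact permutation tests. The fits were tested on simulated counts.

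IP and input were taken from the same lysate, and the number in the labels names the animal. Deviations of the 2 libraries of an animal from their group means correlated at 0.188 to 0.472 over 8056 genes, and the input of each of the 11 animals matched its own pulldown best, so animal was used as a replicate block in an alternative fit. The other alternatives were RLE scaling, 2 other filters, DESeq2 1.42.0, limma-voom 3.58.1, the genotype contrasts from the fit over all 22 libraries, leaving out each animal, and leaving out animals 1, 3, 9 and 12, which an earlier analysis of these data had set apart. The block without those 4 animals was added after seeing the data. IP depth varied 8.79-fold between libraries and input depth 1.72-fold, and members with few reads have wide intervals. These depths include mitochondrial rRNA, which took 25.1% to 53.2% of the counts in input libraries and 0.420% to 0.904% in IP libraries.

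Mutant values by animal and wild-type values as lowest, highest and median are given for Gria1, Gria2, Grin1, Grin2a, Grin2b, Dlg4, Shank3 and Camk2a. The same holds for the 3 members with the smallest p in each genotype comparison, and for the 3 with the largest rise and the 3 with the largest fall in wild-type IP over input. Of the wider pathway list, the 3 genes with the smallest p in each direction of each comparison are named.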

Additional observations from a re-analysis of the deposited data

Results flagged for a closer look

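In 11 of the 136 groups of libraries examined (34 genes in 4 groups), 1 animal stood apart from the rest of its group by Dixon's criterion at the 95% level. Chance alone gives about 1 in 20 groups.

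Mutant animal 9 had 235 CPM of Grin2a in input, where the next mutant had 147, and 71.7 CPM of Grik2 in input, where the next had 92.2. Mutant animal 3 had 74.9 CPM of Nlgn3 in input against 58.0 in the next. Wild-type animal 1 was low in IP for Grin2b, at 1107 CPM against 1288, and for Grik2, where its 103.5 CPM lay below the other 5. Wild-type animal 12 was high in IP for Shank1, at 51.6 CPM against 36.8, and for Dlgap1, at 175 against 134. These 7 values belong to the 4 animals with cortical markers, and the part of those cells in them was not tested.

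The other 4 came from other animals. Wild-type animal 20 had 349.7 CPM of Dlg1 in IP against 257 in the next, and 106 CPM of Cacng3 in input against 74.2. Mutant animal 10 had 5.13 CPM of Cacng8 in IP against 3.84, and mutant animal 2 had 998 CPM of Camk2b in input against 853.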

How the results depend on the processing

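The number of members that passed stayed within 1.5 times the reported one in every alternative: 21 to 24 higher and 4 lower in wild-type IP over input, 21 to 22 higher and 2 to 4 lower in the mutant, and 0 for genotype and for the interaction. With animal as a replicate block the counts were 24 and 4 in wild type and 22 and 4 in the mutant, where Shank1 was added, and 0 for the interaction, and this pairing changed no other call. Calls lost under an alternative were those of Grik5, Cacng3 and Cacng8 in wild type and of Dlg1, Grik1 and Nlgn1 in the mutant. Scaling by RLE ended those of Grik5 (adjusted p = 0.0543), Cacng3 (0.0532) and Dlg1 (0.0909), and DESeq2 that of Grik5 (0.0554).

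Some genotype estimates changed sign, near 0 and further from it, and the cause was not tested. Dlg3 in IP was 0.0024 in limma-voom. Leaving out 1 animal gave -0.022 to 0.0326 for Dlg3 in IP, -0.0733 to 0.0039 for Dlg4 in IP and -0.0371 to 0.0303 in input, and -0.566 to 0.2448 for Grin2c in IP. Without animals 1, 3, 9 and 12, Grin3a in IP went from 0.73 to -0.41 and Grik1 in input from 0.65 to -0.34. With all animals these 2 were the largest positive member estimates in their comparisons.

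For the ratios between genotypes, leaving out 1 animal gave -0.053 to 0.058 for Gria1 to Gria2 in IP, -0.188 to 0.036 for Grin2a to Grin2b in input and -0.101 to 0.146 for Camk2a to Camk2b in input, and for Dlg2 to Dlg4 in IP over input -0.041 to 0.016. Without animals 1, 3, 9 and 12 the ratio of Gria1 to Gria2 was 0.027 and that of Camk2a to Camk2b -0.149 in input, that of Dlg2 to Dlg4 was -0.025 in IP, and that of Camk2a to Camk2b in IP over input was 0.00685.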
